A study of Mus musculus with 23 samples.

Results

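Macrophages sorted from HPV-positive MEER tumours were set against macrophages sorted from HPV-negative MEER tumours, across all genes of the transcriptome. The libraries were chosen by their labels: 3 of HPV-positive and 3 of HPV-negative tumour macrophages, 6 of the 23 libraries of the series. MEER cells are mouse oropharyngeal epithelial cells that carry an activated Ras, and the HPV-positive form also carries papillomavirus oncogenes. Both forms were implanted in C57/Bl6 mice. Cells were taken from the tumours by flow sorting for CD45, CD11b and high F4/80, without Gr1, and each library pooled cells of 3 to 4 mice. Each HPV status is represented by 1 cell line, so effects of the virus and of other differences between the 2 lines cannot be told apart, and p-values cover the spread between pools of mice. The labels number the HPV-positive libraries 1, 2 and 3 and the HPV-negative libraries 1, 2 and 4, and values of single libraries are given in that order.

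Tumour macrophages are phagocytes that take their state from the tissue around them. Growth factors, oxygen, metabolites and dying cells reach the nucleus through receptors, kinases and a layer of fast-acting transcription factors, and the genes that answer include those for nutrient carriers and metabolic enzymes. In many settings, activated macrophages take up more glucose and lower oxidative metabolism, while tissue-resident macrophages can divide in place and carry scavenger and lipid-sensing receptors.

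Levels are CPM, which is the count of a gene as a share of all counts of its library, scaled between libraries by TMM, a method that takes most genes as unchanged. Depth was 26848759 to 31680904 expected counts in HPV-positive libraries and 33237978 to 35605463 in HPV-negative libraries. A log2 change is HPV-positive over HPV-negative, is fitted by edgeR and carries its standard error (SE), and a gene is called higher or lower where its edgeR adjusted p is under 0.05. Of 14085 genes tested, 48.7% were called, 22.8% higher and 25.9% lower. Called and at least 2-fold were 7.92% higher and 7.28% lower. With this many calls, a list of genes stands out only where its share called in 1 direction is far from these figures. The median log2 change of all genes was -0.05. Every HPV-positive library was above every HPV-negative library for 26.4% of genes tested, and below for 30.0%. Groups that do not overlap are therefore common in these data and do not by themselves mark a gene out.

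Scaling bears on small changes. With library totals alone and no scaling factor, an alternative added after the data were seen, the calls were 1866 higher and 6595 lower, against 3206 and 3647 with TMM, and the median of all genes moved by -0.26. Changes under about that size therefore have no settled direction. For some lists the median is also given relative to the median of all genes, a difference that the scaling hardly moves. In bulk libraries, fewer cells of a type and less RNA per cell cannot be told apart.

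**Figure D1:**
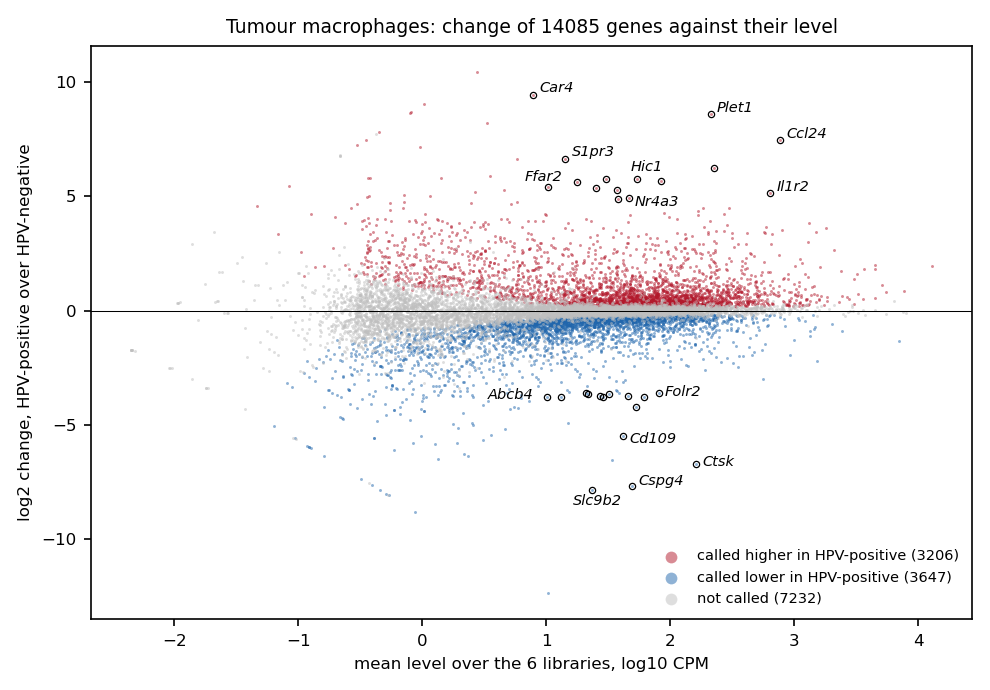
Log2 change (HPV-positive over HPV-negative, vertical axis) of each gene tested against its mean level in log10 CPM (horizontal axis); genes with no count in either group are not drawn. Red genes were called higher in HPV-positive macrophages (3206), blue genes lower (3647), and open circles mark the 15 largest rises and 15 largest falls among genes with at least 10 CPM in each library of the higher group and no overlap between groups, 14 of them named.

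The gate and the cell identity were checked on their genes. Ptprc, which encodes CD45, had 850.1, 873 and 885 CPM in HPV-positive libraries, against 631, 583 and 434 CPM in HPV-negative libraries (log2 0.66 ± 0.12). Itgam, which encodes CD11b, had 1125, 1166 and 1033 CPM in HPV-positive libraries, against 1920.1, 1805 and 1738 CPM in HPV-negative libraries (log2 -0.72 ± 0.08). Adgre1, which encodes F4/80, had 417, 514 and 470.3 CPM in HPV-positive libraries, against 797, 845 and 573 CPM in HPV-negative libraries (log2 -0.66 ± 0.14). The groups did not overlap for any of the 3 genes, with Ptprc higher and Itgam and Adgre1 lower in HPV-positive libraries. Ly6g, which encodes the neutrophil part of Gr1, had 0 counts in all 6 libraries. Of 13 macrophage markers 30.8% were called higher and 30.8% lower. Their summed level was 19899.9 to 22277 CPM in HPV-positive libraries, against 22481 to 30293 CPM in HPV-negative libraries. Csf1r, the growth factor receptor that macrophages depend on, did not pass the test at 2648 ± 59 CPM in HPV-positive and 2734 ± 460.2 CPM in HPV-negative macrophages (SD, n = 3 each), and had a log2 change of -0.17 ± 0.06 (edgeR adjusted p = 0.0368) without HPV-negative library 4. Lyz2, the lysozyme of mature phagocytes, fell to 3619, 4599.9 and 3827 CPM in HPV-positive libraries, against 9401, 11091 and 9376 CPM in HPV-negative libraries.

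Markers of other cells also moved. Of 9 dendritic cell markers tested 7 were called higher, with a summed level of 2388 to 2650.0 CPM in HPV-positive libraries, against 185 to 412 CPM in HPV-negative libraries. Most of that sum was Itgax, which encodes CD11c and is shared with macrophages, at 2296, 2259.7 and 2300.4 CPM in HPV-positive libraries, against 378, 331 and 142 CPM in HPV-negative libraries. Without Itgax, the markers Ccr7, Fscn1 and Flt3 were lowest in HPV-positive library 2, with Ccr7 at 136, 37.9 and 96 CPM in HPV-positive libraries, against 5.46, 3.88 and 5.32 CPM in HPV-negative libraries. Xcr1 of cross-presenting dendritic cells stood at 1.06 CPM in HPV-positive and 1.72 CPM in HPV-negative macrophages. The 9 T cell markers tested summed to 44.3 to 78.3 CPM in HPV-positive libraries, against 45.3 to 74.8 CPM in HPV-negative libraries. The 6 natural killer cell markers summed to 37.3 to 80.8 CPM in HPV-positive libraries, against 18.8 to 35 CPM in HPV-negative libraries. Of these 6 markers 3 were called higher and 0 lower, with Klrb1c and Prf1 among the rises. Klrb1c was called higher with every library left out in turn. Eosinophil granule genes were at or near 0, with Epx at 0 in all 6 libraries and Prg2 at 0.0418 CPM in HPV-positive macrophages and 0 in HPV-negative macrophages, while of the same list Siglecf and Ear2 rose and Ccr3 fell (log2 -3.47 ± 0.39). The fibroblast list summed to 12.2 to 28.5 CPM in HPV-positive libraries, against 13.8 to 83.1 CPM in HPV-negative libraries, its highest level being that of HPV-negative library 4.

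The summed levels of further lists also differed between the groups. The epithelial and tumour cell list summed to 395 to 505 CPM in HPV-positive libraries, against 67.7 to 138 CPM in HPV-negative libraries. In HPV-positive libraries most of that sum was Cdh1, which encodes E-cadherin, at 421, 334 and 449 CPM in HPV-positive libraries, against 59.2, 44.8 and 40.1 CPM in HPV-negative libraries, with 27.5 CPM in the HPV-positive line and 2.17 CPM in the HPV-negative line. Epcam of this list also rose, at a log2 of 2.66 ± 0.68 from under 1 CPM in HPV-negative libraries. Krt8 and Krt18, keratins that the lines express strongly (Krt8 at 794 CPM in the HPV-positive line and 195 CPM in the HPV-negative line), did not pass the test, with Krt8 at 23.7, 24.9 and 19.8 CPM in HPV-positive libraries, against 18.5, 11.9 and 53.2 CPM in HPV-negative libraries. Without HPV-negative library 4 both were called higher, at log2 changes of 0.58 ± 0.19 and 1.26 ± 0.14. The desmosomal gene Dsp was at 0, 0 and 0 CPM in HPV-positive libraries, against 0, 0.0825 and 0.0269 CPM in HPV-negative libraries. The endothelial list summed to 128 to 154 CPM in HPV-positive libraries, against 17.6 to 33.6 CPM in HPV-negative libraries, of which Pecam1, shared with leucocytes, was the most, while Cdh5, the endothelial cadherin, fell to 1.63, 1.7 and 2.02 CPM in HPV-positive libraries, against 4.62, 4.95 and 3.68 CPM in HPV-negative libraries. The monocyte list summed to 589 to 678 CPM in HPV-positive libraries, against 1288 to 1350.4 CPM in HPV-negative libraries, led by F13a1 and Ccr2, which fell, while Ly6c2, Plac8 and Chil3 of the same list rose. The erythroid and platelet list summed to 165 to 268 CPM in HPV-positive libraries, against 464 to 549 CPM in HPV-negative libraries, nearly all of it Pf4 and Ppbp, which fell, with haemoglobin genes under 1 CPM in both group means. The B cell list summed to 19.4 to 27.4 CPM in HPV-positive libraries, against 31.1 to 75.8 CPM in HPV-negative libraries. The part of any of these cells in the results below was not tested.

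Among transcription factors, the NR4A family rose as a whole. Nr4a1, Nr4a2 and Nr4a3 encode orphan nuclear receptors that cells switch on within minutes of a signal and that need no known ligand. All 3 genes were called higher. Nr4a1 (chromosome 15, 101254269 to 101274795, GRCm38) had 530.2, 321 and 398 CPM in HPV-positive libraries, against 69.8, 50.5 and 39.7 CPM in HPV-negative libraries (log2 2.97 ± 0.23, edgeR adjusted p = 1.1e-05). Nr4a2 (chromosome 2, 57106830 to 57124003) had 87, 56.4 and 77.3 CPM in HPV-positive libraries, against 7.39, 6.88 and 6.43 CPM in HPV-negative libraries (log2 3.41 ± 0.18, edgeR adjusted p = 1.2e-06). Nr4a3 (chromosome 4, 48045153 to 48086447) had 101, 55 and 113 CPM in HPV-positive libraries, against 3.75, 2.72 and 2.42 CPM in HPV-negative libraries (log2 4.92 ± 0.30, edgeR adjusted p = 3e-06). The groups were apart for each gene, and library 2 was the lowest HPV-positive library for all 3. In SCCVII macrophages, of a squamous carcinoma in C3H/HeJ mice, the levels were 10.5 to 12.6 CPM for Nr4a1, 1.37 to 2.17 CPM for Nr4a2 and 0.379 to 0.813 CPM for Nr4a3 over the 3 libraries.

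The promoters of the 3 genes are shown because the genes moved together and their windows share a short motif. Each sequence is the 250 bases before the RefSeq start (build GRCm38.p6, read 5′ to 3′ on the gene's strand), at chr15:101266596-101266845 (plus strand), chr2:57124004-57124253 (minus strand) and chr4:48045055-48045304 (plus strand). Capitals mark TGACG or its reverse complement CGTCA, part of the cyclic AMP response element.
Nr4a1: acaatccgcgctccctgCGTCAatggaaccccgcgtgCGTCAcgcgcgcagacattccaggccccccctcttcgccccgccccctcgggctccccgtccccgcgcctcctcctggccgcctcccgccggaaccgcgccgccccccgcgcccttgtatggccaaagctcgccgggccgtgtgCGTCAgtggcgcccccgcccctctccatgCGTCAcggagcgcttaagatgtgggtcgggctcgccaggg
Nr4a2: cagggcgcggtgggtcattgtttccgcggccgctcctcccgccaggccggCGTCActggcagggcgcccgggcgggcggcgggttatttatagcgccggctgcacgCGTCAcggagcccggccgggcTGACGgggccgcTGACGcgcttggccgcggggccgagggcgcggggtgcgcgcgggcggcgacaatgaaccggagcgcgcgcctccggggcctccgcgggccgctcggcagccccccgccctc
Nr4a3: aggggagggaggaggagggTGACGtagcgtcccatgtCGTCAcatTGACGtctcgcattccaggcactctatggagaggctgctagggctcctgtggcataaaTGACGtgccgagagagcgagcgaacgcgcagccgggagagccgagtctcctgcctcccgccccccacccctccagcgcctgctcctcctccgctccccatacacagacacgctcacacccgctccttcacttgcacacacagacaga
Each window held 4 copies on either strand, none overlapping another. Of 32851 RefSeq windows of this length, 17.8% held at least 1 copy and 0.137% held at least 4. By gene, 19.8% of 27025 genes held at least 1 copy in a window and 0.163% held at least 4. The windows were shown for the motif they share, so these shares are not a test of it. Of 27 tested nuclear receptor genes matched to a window, 9 held at least 1 copy and 3 held at least 4, the 3 NR4A genes. In other lists a copy was held by 53.8% of 13 matched KLF, EGR and ID factors and 56.2% of 16 matched AP-1, MAF, BACH and CNC factors, none with 4. The share over all 27025 genes includes genes that were not tested for expression here, so it is not a matched background for these lists. A match describes letters and does not show that a factor binds there.

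Other immediate early factors rose with them. Of 19 KLF, EGR and ID factors 63.2% were called higher and 10.5% lower (median log2 0.80, 0.85 above all genes). Egr2, a zinc finger factor of myeloid cells, had 181, 154 and 162 CPM in HPV-positive libraries, against 17.5, 21.8 and 20.7 CPM in HPV-negative libraries (log2 3.05 ± 0.09). Of 21 AP-1, MAF, BACH and CNC factors 13 were called higher and 2 lower (median log2 0.88). Fosb rose by a log2 of 2.42 ± 0.22, Maff by 2.42 ± 0.13 and Junb by 1.91 ± 0.17. Klf4, Klf6 and Egr1 rose by 1.35 ± 0.12, 1.31 ± 0.12 and 1.23 ± 0.19. Fos, an AP-1 subunit of the immediate early response, did not pass the test. Its level was 1750.2, 1823 and 1697 CPM in HPV-positive libraries, against 1788, 1816 and 959 CPM in HPV-negative libraries, where library 4 alone was low.

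The falls among these factors were fewer. The 2 AP-1 and MAF factors called lower were Maf and Jdp2. Maf, a factor of tissue-resident macrophages, had 75.8, 116 and 78.7 CPM in HPV-positive libraries, against 395, 513 and 373 CPM in HPV-negative libraries (log2 -2.24 ± 0.18, edgeR adjusted p = 1.3e-05), with every HPV-positive library far below the lowest HPV-negative library. Jdp2, a repressor of the AP-1 family, had 30.4, 29.4 and 29.8 CPM in HPV-positive libraries, against 84.6, 104 and 101 CPM in HPV-negative libraries. Spi1, the lineage factor PU.1, did not pass the test (log2 0.06 ± 0.09), and was called lower at -0.19 with no scaling factor (edgeR adjusted p = 0.0457).

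Genes of the circadian loop changed in both directions. Of 25 oxygen, clock and bHLH factors 44% were called higher and 28% lower, against counts of 9 and 9 with no scaling factor. Bhlhe40, a repressor that answers to many signals, had 1565, 1299 and 1532 CPM in HPV-positive libraries, against 114, 125 and 143 CPM in HPV-negative libraries (log2 3.52 ± 0.11, edgeR adjusted p = 8.3e-08), an 11.5-fold difference. Nfil3, a bZIP repressor that also acts on the clock, had 470.3, 386 and 442 CPM in HPV-positive libraries, against 45.3, 41.7 and 28.6 CPM in HPV-negative libraries (log2 3.49 ± 0.16). The period genes Per1 and Per2, the negative arm of the loop, rose by a log2 of 2.30 ± 0.11 and 2.10 ± 0.20. Arntl, which encodes the activator BMAL1, fell, at 6.97, 6.01 and 6.13 CPM in HPV-positive libraries and 14.7, 15.2 and 17.4 CPM in HPV-negative libraries (log2 -1.31 ± 0.11). Nr1d1 and Nr1d2, the REV-ERB receptors of the loop, fell, at log2 changes of -1.28 ± 0.23 and -0.92 ± 0.24. None of these groups overlapped, and the HPV-negative library 4 held the highest level of Arntl, Nr1d1 and Nr1d2. Of their relatives, Per3 and Dbp fell, at log2 changes of -1.17 ± 0.35 and -0.89 ± 0.26 (-0.97 ± 0.38 and -0.76 ± 0.30 without HPV-positive library 3, edgeR adjusted p = 0.0764 and 0.0755), and the cryptochromes Cry1 and Cry2 rose by 0.69 ± 0.11 and 0.86 ± 0.16.

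Among nuclear receptors outside NR4A, Vdr, the vitamin D receptor, had 179, 153 and 164 CPM in HPV-positive libraries, against 26, 29.8 and 24.6 CPM in HPV-negative libraries (log2 2.63 ± 0.09), and Rara, a retinoic acid receptor, rose by 1.03 ± 0.10. Of 30 tested 40% were called higher and 16.7% lower, against counts of 9 higher and 8 lower with no scaling factor, under which the median turned to -0.18 in place of 0.07. Of 16 interferon regulatory factors and STATs 68.8% were called higher and 6.25% lower. Irf4, which acts downstream of interleukin-4, had 25.7, 19.8 and 26.7 CPM in HPV-positive libraries, against 3.32, 3.96 and 3.87 CPM in HPV-negative libraries (log2 2.69 ± 0.16), and Irf8 and Stat3 rose by 0.97 ± 0.12 and 0.84 ± 0.08. Ahr, the receptor for aryl hydrocarbons and tryptophan products, rose by 1.90 ± 0.19. Hif1a rose by 0.82 ± 0.14, and Epas1, which encodes the related HIF-2α, fell, at 4.8, 5.69 and 5.78 CPM in HPV-positive libraries, against 9.07, 17.8 and 9.2 CPM in HPV-negative libraries. Mxd1, an antagonist of MYC, had 242, 207 and 246 CPM in HPV-positive libraries, against 49, 42.6 and 28 CPM in HPV-negative libraries (log2 2.54 ± 0.18). Prdm1, the repressor Blimp-1, rose by 1.87 ± 0.11, and Cebpb, Runx2 and Ets2 by 1.94 ± 0.13, 1.99 ± 0.18 and 1.86 ± 0.11. Foxp1, Tcf4 and Sox4 fell, at log2 changes of -1.06 ± 0.13, -0.95 ± 0.07 and -1.46 ± 0.26.

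**Figure D2:**
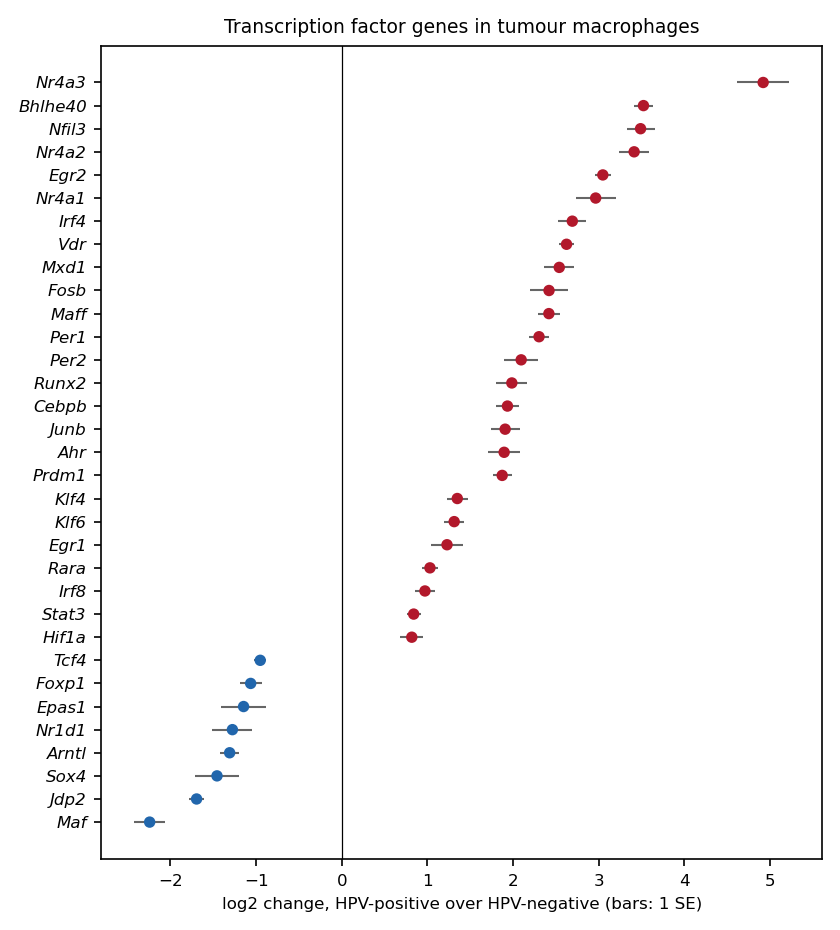
Log2 change (HPV-positive over HPV-negative, horizontal axis) of 33 transcription factor genes, with bars of 1 SE; red marks genes higher and blue genes lower in HPV-positive macrophages. Nr4a3 lies at 4.92 and Bhlhe40 at 3.52 at one end, and Maf lies at -2.24 at the other.

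Genes of glycolysis rose together. Of 19 glycolytic enzymes 16 were called higher and 2 lower (84.2% and 10.5%), with a median log2 change of 0.71. With no scaling factor 15 were called higher. Slc2a1, which encodes the glucose carrier GLUT1, had 792, 868 and 866 CPM in HPV-positive libraries, against 255, 246 and 288 CPM in HPV-negative libraries (log2 1.68 ± 0.08). The carriers as a list changed in both directions: of 11 glucose and monocarboxylate carriers 27.3% were called higher and 45.5% lower. Their median log2 was -0.22, or -0.167 from that of all genes. Slc2a6 and Slc2a8 had log2 changes of -1.29 ± 0.19 and -0.38 ± 0.07. Hk2, the hexokinase that traps glucose in the cell, had 398, 485 and 459 CPM in HPV-positive libraries, against 121, 137 and 133 CPM in HPV-negative libraries (log2 1.78 ± 0.09). Pfkfb3, whose product makes the activator of phosphofructokinase, had 287, 309.7 and 319 CPM in HPV-positive libraries, against 119, 114 and 104 CPM in HPV-negative libraries (log2 1.45 ± 0.08). For Slc2a1, Hk2 and Pfkfb3 the lowest HPV-positive library was more than 2-fold above the highest HPV-negative library. Pfkp and Aldoc, a phosphofructokinase and an aldolase, rose by 1.81 ± 0.14 and 1.99 ± 0.08. The late enzymes moved less, with Pkm at a log2 of 0.71 ± 0.07 and Eno1 at 0.65 ± 0.07. Pfkfb4, a relative of Pfkfb3, was called lower (-0.40 ± 0.08), as was the weakly expressed Eno2 (0.771 ± 0.0715 CPM in HPV-positive and 1.65 ± 0.481 CPM in HPV-negative macrophages, SD, n = 3 each).

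Glycogen genes rose as well. Of 13 glycogen genes 10 were called higher and 1 lower, with a median log2 of 0.59. Gys1, which encodes glycogen synthase, had 195, 209 and 191 CPM in HPV-positive libraries, against 70.1, 72.2 and 84 CPM in HPV-negative libraries (log2 1.39 ± 0.08). Pygl, a glycogen phosphorylase that releases glucose units, had 397, 369 and 342 CPM in HPV-positive libraries, against 108, 106 and 111 CPM in HPV-negative libraries (log2 1.77 ± 0.08). Genes of synthesis and of breakdown both rose, as did Ppp1r3d and Ppp1r3b, which bring a phosphatase to glycogen (log2 2.07 ± 0.15 and 1.43 ± 0.08). Pygb, the other phosphorylase with a high level, was called lower (-0.34 ± 0.09). The cultured lines held Pygl at 0.00925 CPM in the HPV-positive line and 0.0194 CPM in the HPV-negative line. Taldo1 and Tkt of the pentose phosphate pathway, another route from glucose 6-phosphate, rose by 0.80 ± 0.08 and 0.72 ± 0.07.

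The promoters of Slc2a1 and Hk2 are shown as the genes of glucose entry, with capitals at ACGTG or CACGT, the core of the element that hypoxia-inducible factors recognise. They are the 250 bases before the RefSeq start, at chr4:119108495-119108744 (plus strand) and chr6:82774455-82774704 (minus strand).
Slc2a1: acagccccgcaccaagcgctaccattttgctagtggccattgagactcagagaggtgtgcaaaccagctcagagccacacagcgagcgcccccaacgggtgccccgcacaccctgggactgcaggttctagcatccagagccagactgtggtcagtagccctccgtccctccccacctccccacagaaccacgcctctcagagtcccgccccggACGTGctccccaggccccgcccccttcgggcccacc
Hk2: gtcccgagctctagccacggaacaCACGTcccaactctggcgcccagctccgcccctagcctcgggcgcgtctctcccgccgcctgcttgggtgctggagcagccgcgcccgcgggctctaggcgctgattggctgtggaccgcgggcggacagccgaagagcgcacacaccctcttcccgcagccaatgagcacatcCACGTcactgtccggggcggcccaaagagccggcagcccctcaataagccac
The Slc2a1 window held 1 copy and the Hk2 window 2 copies that do not overlap, and 16.6% of all windows of this length held at least 1. By gene, 18.5% of 27025 genes held a copy in a window. Of matched members, a copy was held by 47.4% of 19 glycolytic enzymes, 72.7% of 11 glycogen genes and 28.6% of 14 genes of lipid uptake and droplets, and among members called higher by 50% of 16, 62.5% of 8 and 33.3% of 9 in the same order. The share over all 27025 genes includes genes that were not tested for expression here, so it is not a matched background for these lists. These counts describe the windows and were not tested.

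Genes of lipid uptake and droplets rose together, lipases such as Pnpla2 and Lipe included. Of 20 genes of lipid uptake and droplets 13 were called higher and 0 lower by edgeR, as by DESeq2, and 1 gene, Fabp3, was lower at an unadjusted p under 0.05. Fabp3, a fatty acid-binding protein, was close to the detection floor, at 0, 0 and 0.0709 CPM in HPV-positive libraries, against 0.0289, 0.248 and 0.269 CPM in HPV-negative libraries, and was called lower without HPV-positive library 3 or without HPV-negative library 1 (edgeR adjusted p = 0.0358 and 0.0185). With no scaling factor 12 were called higher. Hilpda, a droplet protein that blocks the main triglyceride lipase, had 301, 310.3 and 296 CPM in HPV-positive libraries, against 43.3, 40.2 and 35.1 CPM in HPV-negative libraries (log2 2.94 ± 0.10, edgeR adjusted p = 1.2e-07). Dgat2 and Dgat1, the enzymes of the last step of triglyceride synthesis, rose by a log2 of 1.65 ± 0.15 and 1.32 ± 0.09. Acly, which makes cytosolic acetyl-CoA from citrate, had 689, 652 and 637 CPM in HPV-positive libraries, against 309.7, 337 and 260.1 CPM in HPV-negative libraries (log2 1.13 ± 0.09). Scd2, a desaturase, and Fasn, the fatty acid synthase, rose by 1.26 ± 0.17 and 0.81 ± 0.07. Fads1 and Fads2, which desaturate polyunsaturated fatty acids, fell, at log2 changes of -1.03 ± 0.10 and -1.13 ± 0.24. Pltp, a phospholipid transfer protein and target of liver X receptors, fell to 101, 96.8 and 106 CPM in HPV-positive libraries, against 351, 305 and 224 CPM in HPV-negative libraries. Galc, the lysosomal galactosylceramidase, fell, at a log2 change of -1.72 ± 0.15.

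Oxidative metabolism showed small and scaling-dependent shifts. Of 21 genes of pyruvate dehydrogenase and the citric acid cycle 10 were called lower, the widest of these falls being that of Suclg2 (-0.52 ± 0.08), and 14.3% were called higher. Mdh2, the mitochondrial malate dehydrogenase, stood apart with 519, 466 and 481 CPM in HPV-positive libraries, against 202, 214 and 204 CPM in HPV-negative libraries (log2 1.24 ± 0.07). Of 81 nuclear-encoded respiratory chain subunits 4.94% were called higher and 28.4% lower, against a count of 63 lower with no scaling factor, and their median lay -0.04 from that of all genes. The widest fall among them was that of Ndufa4, a subunit tied to complex IV, with 22.8, 21.7 and 22.1 CPM in HPV-positive libraries, against 51.1, 61.4 and 51.6 CPM in HPV-negative libraries (log2 -1.30 ± 0.08). Mitochondrial ribosomal proteins had 35 of 77 members called lower and 2.6% higher, with a median -0.17 from that of all genes. The 20 fatty acid oxidation genes had a median log2 change of -0.00, between -0.74 and 0.69. Subunits encoded by the mitochondrial genome were not analysed here.

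Mitotic genes fell together, and most pyrimidine genes fell with them. All 22 mitotic genes were called lower under both scalings, with log2 changes between -1.50 and -0.47. Leaving out the scaling factor moves genes downward as a whole, so it is no check on a fall. Of 15 pyrimidine genes 12 were called lower and 2 higher, and of 16 purine genes 8 were called lower. Tk1, the thymidine kinase of S phase, had 29.3, 26 and 30.7 CPM in HPV-positive libraries, against 71.8, 77.2 and 70.7 CPM in HPV-negative libraries (log2 -1.35 ± 0.08, edgeR adjusted p = 3.1e-06). Rrm1, the large subunit of ribonucleotide reductase, had 73.4, 77.8 and 80.3 CPM in HPV-positive libraries, against 136, 137 and 134 CPM in HPV-negative libraries. The 2 pyrimidine genes that rose belong to salvage, Uck2, a uridine kinase, at a log2 of 1.20 ± 0.09 and Upp1, a uridine phosphorylase, at 0.95 ± 0.19. Both lines divide in culture, and their transcripts also hold these genes, with Tk1 at 72.6 CPM in the HPV-positive line and 34.3 CPM in the HPV-negative line. Without HPV-negative library 4 all 22 mitotic genes were called lower as well.

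Genes of amino acid transport, redox and polyamines changed in both directions. Slc7a11, the cystine carrier that feeds glutathione synthesis, had 194, 180.1 and 196 CPM in HPV-positive libraries, against 27.4, 29.3 and 24.6 CPM in HPV-negative libraries (log2 2.81 ± 0.08, edgeR adjusted p = 7.5e-08). Slc7a2, a carrier of arginine and other cationic amino acids, had 331, 467 and 387 CPM in HPV-positive libraries, against 61.4, 65.5 and 71.9 CPM in HPV-negative libraries (log2 2.58 ± 0.17). Gsr, which regenerates reduced glutathione, had 242, 227 and 205 CPM in HPV-positive libraries, against 52, 45.3 and 41.4 CPM in HPV-negative libraries (log2 2.28 ± 0.10). All 3 genes had groups far apart, while Gclm, a subunit of the enzyme that starts glutathione synthesis, fell, at a log2 change of -0.81 ± 0.17. Slc3a2 and Slc7a5, which together form a carrier of large neutral amino acids, rose by 0.95 ± 0.06 and 1.02 ± 0.11. Atf3 and Ddit4, genes of the stress response to missing amino acids and low oxygen, rose by 3.39 ± 0.26 and 1.97 ± 0.24, and Nupr1 of the same list was called lower. Odc1, the entry enzyme of polyamine synthesis, had 375, 320.0 and 399.5 CPM in HPV-positive libraries, against 129, 103 and 85.6 CPM in HPV-negative libraries (log2 1.79 ± 0.14), whereas Sms and Amd1, which serve its later steps, fell, at log2 changes of -1.12 ± 0.18 and -0.58 ± 0.07.

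Genes of tryptophan breakdown and NAD synthesis changed in both directions. Kynu, Kmo and Haao, enzymes of the kynurenine route, rose by a log2 of 2.58 ± 0.38, 2.20 ± 0.30 and 1.51 ± 0.23. Kmo had 62.5, 38.1 and 55.8 CPM in HPV-positive libraries, against 15.9, 12.3 and 5.97 CPM in HPV-negative libraries, and the HPV-positive library 2 was the lowest of its group for Kmo and for Il4i1, an amino acid oxidase that rose by 2.57 ± 0.34. Nampt, which recycles nicotinamide into NAD, had 648, 629.9 and 619 CPM in HPV-positive libraries, against 274, 263 and 197 CPM in HPV-negative libraries (log2 1.37 ± 0.12). Of 13 genes in the list 38.5% were called higher and 38.5% lower. Qprt and Naprt, which lead from quinolinic and nicotinic acid to NAD, fell, at log2 changes of -2.87 ± 0.31 and -1.68 ± 0.22 at low levels, with Naprt at 1.88, 2.17 and 1.56 CPM in HPV-positive libraries, against 5.95, 7.57 and 4.52 CPM in HPV-negative libraries.

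Iron genes changed in both directions, with 8 of 20 called higher and 8 lower, and 12 lower with no scaling factor. The ferritin genes Fth1 and Ftl1 were among the most abundant of all, at 12718 ± 669.7 TPM in HPV-positive and 7000.4 ± 114 TPM in HPV-negative macrophages for Fth1 (a level scaled for transcript length, as deposited) and 11255 ± 936 TPM in HPV-positive and 7782 ± 429 TPM in HPV-negative macrophages for Ftl1 (SD, n = 3 each). They rose by a log2 of 1.14 ± 0.07 and 0.82 ± 0.08, though reads of their many pseudogenes make single values uncertain. These log2 changes are scaled by TMM and the TPM levels are not, so the TPM levels give smaller rises. Tfrc, the transferrin receptor that brings iron in, had 31.1, 26.1 and 29.9 CPM in HPV-positive libraries, against 76.4, 56.5 and 75.4 CPM in HPV-negative libraries (log2 -1.26 ± 0.12). Steap3, the reductase that frees that iron, had 16, 15.5 and 16.9 CPM in HPV-positive libraries, against 49.5, 55.1 and 47.8 CPM in HPV-negative libraries (log2 -1.65 ± 0.08), and Cp, the ferroxidase ceruloplasmin, fell, at a log2 change of -3.61 ± 0.29. Cd163, the receptor for haemoglobin with haptoglobin, had 2.46, 8.93 and 2.98 CPM in HPV-positive libraries and 28.6, 47.1 and 21.6 CPM in HPV-negative libraries (log2 -2.76 ± 0.45, or -3.57 ± 0.38 without HPV-positive library 2). Trf, which encodes transferrin, had 1365, 2014 and 1441 CPM in HPV-positive libraries, against 879.5, 1240.3 and 397 CPM in HPV-negative libraries (log2 0.94 ± 0.34, edgeR adjusted p = 0.043). That call was lost without HPV-positive library 1, 2 or 3 or HPV-negative library 1, at 1.04 ± 0.38, 0.74 ± 0.37, 1.01 ± 0.39 and 0.97 ± 0.40 (edgeR adjusted p from 0.0591 to 0.139). Mt1 and Mt2, the metallothioneins that bind zinc and copper, rose by 2.16 ± 0.13 and 2.69 ± 0.29, with Mt1 at 537, 667 and 644 CPM in HPV-positive libraries, against 132, 155 and 128 CPM in HPV-negative libraries.

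Eicosanoid genes changed in both directions, with 53.3% of 15 called higher and 33.3% lower. Ptgs2, the inducible prostaglandin synthase, had 462, 321 and 395 CPM in HPV-positive libraries, against 27.9, 24.7 and 24 CPM in HPV-negative libraries (log2 3.94 ± 0.14). Alox5, the enzyme that starts leukotriene synthesis, had 16.5, 31.6 and 26.4 CPM in HPV-positive libraries, against 81.2, 98.9 and 119.7 CPM in HPV-negative libraries (log2 -2.01 ± 0.22, edgeR adjusted p = 8.6e-05). Hpgd, which inactivates prostaglandins, had 4.3, 6.05 and 5.24 CPM in HPV-positive libraries, against 31.1, 28.7 and 19.9 CPM in HPV-negative libraries (log2 -2.35 ± 0.31). Alox5ap, which presents arachidonic acid to Alox5, and Hpgds, which makes prostaglandin D2, fell, at log2 changes of -0.83 ± 0.11 and -1.06 ± 0.18. The later leukotriene enzymes rose, with Lta4h at 1.34 ± 0.09 and Ltc4s at 2.33 ± 0.23. The cultured lines held Ptgs2 at 472 CPM in the HPV-positive line and 258 CPM in the HPV-negative line, and Alox5 at 0.0119 CPM in the HPV-positive line and 0.0303 CPM in the HPV-negative line.

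**Figure D3:**
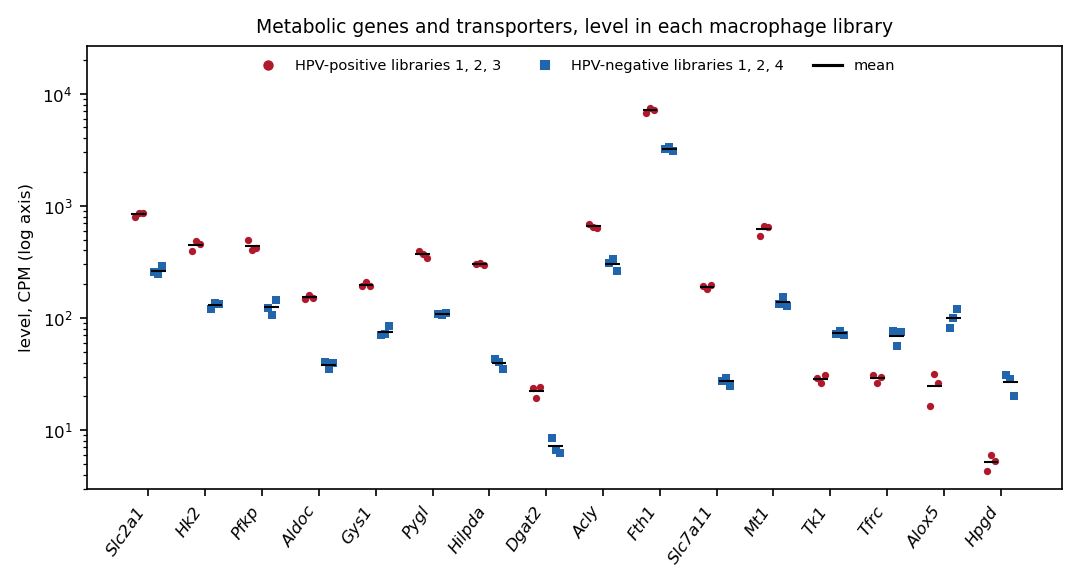
Level of 16 metabolic and carrier genes (CPM, log axis) in each library, with HPV-positive libraries as red circles to the left of HPV-negative libraries as blue squares, and black lines at the group means (n = 3 each). The groups do not overlap for any gene drawn; the last 4 genes, Tk1, Tfrc, Alox5 and Hpgd, are lower in HPV-positive libraries.

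Solute carriers were called in both directions alike under TMM. Of 217 solute carriers 70 were called higher and 66 lower, or 42 and 95 with no scaling factor. Slc9b2, a sodium and proton exchanger (chromosome 3, 135307700 to 135345387), had 0.125, 0.079 and 0.354 CPM in HPV-positive libraries, against 33.1, 36.1 and 69.7 CPM in HPV-negative libraries (log2 -7.88 ± 0.51, edgeR adjusted p = 3.9e-06). It was the largest fall of the rule that picks genes with at least 10 CPM, with 0.0199 CPM in the HPV-positive line and 0 CPM in the HPV-negative line, and its change was -8.78 ± 0.67 without HPV-positive library 3. Slc16a10, a carrier of aromatic amino acids and thyroid hormone, had 9.73, 11.7 and 10.5 CPM in HPV-positive libraries, against 52.3, 47.2 and 47.8 CPM in HPV-negative libraries (log2 -2.21 ± 0.08). Slc44a1, a choline carrier, and Slc13a3, a carrier of dicarboxylates, fell, at log2 changes of -2.08 ± 0.10 and -1.99 ± 0.26. Slco2b1, an organic anion carrier, had 3.13, 8.3 and 4.54 CPM in HPV-positive libraries, against 96.6, 119 and 83.1 CPM in HPV-negative libraries (log2 -4.22 ± 0.28). Slc16a3, which exports lactate, rose, at 481, 509.5 and 490.4 CPM in HPV-positive libraries and 211, 202 and 266 CPM in HPV-negative libraries. Slc4a8, a bicarbonate carrier, rose by 3.91 ± 0.45, with its lowest HPV-positive level in library 2 (27.4, 8.02 and 18 CPM).

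P-type ATPases were tilted upward, with 58.3% of 24 called higher and 8.33% lower. Of 34 ABC transporters 6 were called higher and 13 lower. Abcb1a and Abcb4 are neighbours of 1 family with opposite changes. Abcb1a, a multidrug exporter, had 63.7, 61.9 and 61.8 CPM in HPV-positive libraries, against 13.3, 11.6 and 6.91 CPM in HPV-negative libraries (log2 2.56 ± 0.21). Its close relative Abcb1b was called lower, so the rise does not hold for both genes. Abcb4, a phosphatidylcholine flippase, had 1.13, 1.58 and 1.38 CPM in HPV-positive libraries, against 16.9, 15.3 and 24.6 CPM in HPV-negative libraries (log2 -3.79 ± 0.22). Tap1 and Tap2, which carry peptides to MHC class I, rose by 0.83 ± 0.19 and 0.97 ± 0.15. Of the proton pump, the subunit Atp6v0d2, known from osteoclasts, fell, at a log2 change of -1.88 ± 0.30. Kcnn4, a calcium-activated potassium channel, fell, at a log2 change of -1.70 ± 0.11.

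Receptors for lipids and metabolites changed in both directions. Of 24 such G protein-coupled receptors 54.2% were called higher and 20.8% lower. Hcar2, the receptor for niacin and the ketone body β-hydroxybutyrate, had 227, 209 and 201 CPM in HPV-positive libraries, against 13.1, 13.9 and 12.4 CPM in HPV-negative libraries (log2 4.01 ± 0.09, edgeR adjusted p = 3.1e-08). Ffar2, a receptor for short-chain fatty acids, had 41.9, 32.8 and 28.6 CPM in HPV-positive libraries, against 0.924, 0.468 and 0.672 CPM in HPV-negative libraries (log2 5.64 ± 0.25). Gpr84, a receptor for medium-chain fatty acids, had 5.22, 5.26 and 6.2 CPM in HPV-positive libraries, against 45.8, 48.6 and 34.6 CPM in HPV-negative libraries (log2 -2.95 ± 0.16). The receptors for sphingosine 1-phosphate changed in opposite directions. S1pr3 rose to 37, 22.2 and 25.5 CPM in HPV-positive libraries, against 0.115, 0.22 and 0.484 CPM in HPV-negative libraries (log2 6.65 ± 0.42, or 7.35 ± 0.39 without HPV-negative library 4). S1pr1 fell to 2.17, 4.58 and 2.83 CPM in HPV-positive libraries, against 11.1, 20.0 and 16.2 CPM in HPV-negative libraries (log2 -2.30 ± 0.30), and S1pr2 fell, at a log2 change of -0.48 ± 0.07. Gpr34, a receptor for lysophosphatidylserine, had 7.56, 10.0 and 7.72 CPM in HPV-positive libraries, against 76.2, 91.8 and 53.9 CPM in HPV-negative libraries (log2 -3.13 ± 0.21).

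Receptors for nucleotides also changed in both directions. P2ry10 and P2ry14 rose by a log2 of 2.91 ± 0.32 and 1.89 ± 0.25, and P2ry12 and P2ry13, which respond to ADP, fell, at log2 changes of -1.47 ± 0.19 and -1.05 ± 0.27. Over 18 purinergic and adenosine genes 44.4% were called higher and 22.2% lower. The groups overlapped for P2ry13, at 28.3, 35.7 and 28.9 CPM in HPV-positive libraries, against 70.1, 87.7 and 35 CPM in HPV-negative libraries. Adgrg5, an adhesion receptor, had 309, 314 and 325 CPM in HPV-positive libraries, against 25.8, 19.1 and 7.74 CPM in HPV-negative libraries (log2 4.17 ± 0.36). The HPV-negative library 4 was the lowest of its group for Adgrg5, P2ry12 and P2ry13.

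C-type lectins, receptors that bind sugars and other ligands on microbes and cells, changed widely. Of 48 tested 21 were called higher and 8 lower, 17 and 7 of them at least 2-fold. Mgl2, a lectin for galactose-type sugars, had 668, 743 and 742 CPM in HPV-positive libraries, against 128, 116 and 39.9 CPM in HPV-negative libraries (log2 2.93 ± 0.38). Klrb1b, a lectin-like receptor of the natural killer complex, had 356, 282 and 328 CPM in HPV-positive libraries, against 67.9, 38.5 and 20.1 CPM in HPV-negative libraries (log2 2.93 ± 0.35). The natural killer cell markers summed to 37.3 to 80.8 CPM in HPV-positive libraries, against 18.8 to 35 CPM in HPV-negative libraries. Clec12a, an inhibitory receptor for uric acid crystals, had 33.2, 28.3 and 29.8 CPM in HPV-positive libraries, against 175, 123 and 203 CPM in HPV-negative libraries (log2 -2.46 ± 0.18). Cd207, which encodes langerin, fell to 0.501, 0.316 and 0.921 CPM in HPV-positive libraries, against 12.6, 5.92 and 15.5 CPM in HPV-negative libraries.

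Other receptor families differed from each other. Of 20 Ig-like inhibitory and activating receptors 50% were called higher and 25% lower, and of 18 genes of the CD300 and TREM families 27.8% higher and 38.9% lower. Of 8 MS4A genes, tetraspan proteins of the leucocyte surface, 12.5% were called higher and 62.5% lower. Ms4a7 had 92.6, 134 and 108 CPM in HPV-positive libraries, against 501, 522 and 378 CPM in HPV-negative libraries (log2 -2.06 ± 0.15), and Ms4a6b and Ms4a6c fell, at log2 changes of -1.38 ± 0.16 and -0.92 ± 0.17. Siglec1, a sialic acid receptor of resident macrophages, had 113, 114 and 99.1 CPM in HPV-positive libraries, against 345, 404 and 277 CPM in HPV-negative libraries (log2 -1.66 ± 0.14). Trem2, a lipid-sensing receptor, fell, at 149.6, 175 and 149 CPM in HPV-positive libraries and 280.0, 323 and 299.7 CPM in HPV-negative libraries, while Trem1, which amplifies inflammatory signals, rose by 1.89 ± 0.25. Siglecf, a sialic acid receptor of eosinophils and some macrophages, had 42.2, 60.9 and 44.3 CPM in HPV-positive libraries, against 1.24, 1.68 and 0.618 CPM in HPV-negative libraries (log2 5.38 ± 0.28).

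Cytokine and growth factor receptors were mixed. Of 35 interleukin and interferon receptor genes 16 were called higher and 8 lower. Il1r2, a decoy receptor that binds interleukin-1 without signalling, had 1433, 1046 and 1273 CPM in HPV-positive libraries, against 57.3, 32.6 and 15.8 CPM in HPV-negative libraries (log2 5.15 ± 0.42, edgeR adjusted p = 1.3e-05). Csf2rb, the shared chain of the receptors for GM-CSF, interleukin-3 and interleukin-5, had 1709.8, 1506 and 1602 CPM in HPV-positive libraries, against 436, 458 and 335 CPM in HPV-negative libraries (log2 1.97 ± 0.12). Ifnar1 and Ifngr2, chains of the receptors for both types of interferon, fell, at log2 changes of -0.70 ± 0.05 and -0.59 ± 0.07. Il10rb, a chain of the interleukin-10 receptor, fell, at a log2 change of -0.81 ± 0.07. Nrp1 and Nrp2, co-receptors for semaphorins and VEGF, fell, at log2 changes of -1.43 ± 0.16 and -1.26 ± 0.09, with Nrp1 at 68.4, 85.9 and 76.9 CPM in HPV-positive libraries, against 217, 254 and 154 CPM in HPV-negative libraries. Axl, a receptor for apoptotic cells, rose by 0.94 ± 0.11.

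**Figure D4:**
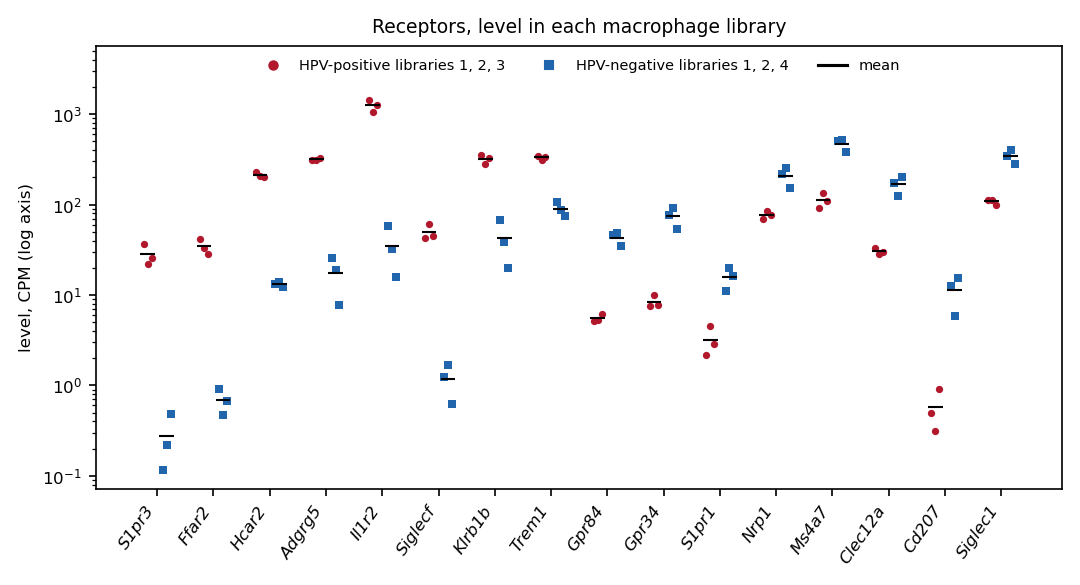
Level of 16 receptor genes (CPM, log axis) in each library, with HPV-positive libraries as red circles to the left of HPV-negative libraries as blue squares, and black lines at the group means (n = 3 each). The first 8 genes, S1pr3 to Trem1, are higher and the last 8, Gpr84 to Siglec1, lower in HPV-positive libraries, with no overlap between groups.

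Secreted factors and proteases held some of the widest differences. Of 41 growth factors and regulators 18 were called higher and 9 lower. Pgf, placental growth factor of the VEGF family, had 190.0, 134 and 185 CPM in HPV-positive libraries, against 8.95, 10.8 and 6.69 CPM in HPV-negative libraries (log2 4.27 ± 0.19). Osm, the cytokine oncostatin M, had 1240.4, 854 and 1018 CPM in HPV-positive libraries, against 134, 108 and 46.1 CPM in HPV-negative libraries (log2 3.43 ± 0.34), and Hbegf, a ligand of the EGF receptor, rose by 3.33 ± 0.26. Pdgfa and Pdgfb, the platelet-derived growth factors, fell, at log2 changes of -2.07 ± 0.12 and -1.07 ± 0.07. Grem1 and Angptl2 were called lower too, but both were highest in HPV-negative library 4, and the lines also express them, Grem1 at 27.5 CPM in the HPV-positive line and 581 CPM in the HPV-negative line. Without that library their changes were -1.74 ± 0.15 and -1.54 ± 0.21.

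Of 20 metalloproteinases 45% were called higher and 20% lower. Mmp12, the macrophage elastase, had 3114, 3843 and 3091 CPM in HPV-positive libraries, against 298, 224 and 299 CPM in HPV-negative libraries (log2 3.61 ± 0.27). Mmp13, a collagenase, had 1975, 3265 and 2099.7 CPM in HPV-positive libraries, against 252, 192 and 69.8 CPM in HPV-negative libraries (log2 3.84 ± 0.43). Adamdec1, a metalloprotease of gut macrophages, had 348, 562 and 418 CPM in HPV-positive libraries, against 10.5, 6.71 and 0.242 CPM in HPV-negative libraries (log2 6.26 ± 0.73, or 7.00 ± 0.83 without HPV-negative library 1). All 3 were several times higher in every HPV-positive library, and their levels in both lines were under 3 CPM. The coagulation genes F7 and F10, factors of the clotting cascade, rose by 3.27 ± 0.20 and 2.73 ± 0.16. F13a1, which cross-links fibrin and is in the monocyte list above, fell to 175, 272 and 178 CPM in HPV-positive libraries, against 702, 838 and 673 CPM in HPV-negative libraries. Timp2, an inhibitor of metalloproteinases, had 109, 177 and 144 CPM in HPV-positive libraries, against 507, 661 and 556 CPM in HPV-negative libraries (log2 -2.00 ± 0.17). Timp3 was called lower at a log2 of -6.53 ± 1.59, a size that rests on HPV-negative library 4 (5.08, 6.41 and 189.6 CPM in HPV-negative libraries, and 79.4 CPM in the HPV-positive line and 1300.0 CPM in the HPV-negative line). Without it the change was -2.99 ± 0.25.

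Feedback regulators of signalling rose with the immediate early factors. Of 27 dual specificity phosphatases and other feedback genes 16 were called higher and 5 lower (Dusp7, Spred1, Spry2, Rgs10 and Rgs18). Dusp5, which switches off ERK in the nucleus, had 261, 209 and 249.6 CPM in HPV-positive libraries, against 30.3, 24.5 and 24.2 CPM in HPV-negative libraries (log2 3.19 ± 0.13). Cish and Socs2, which damp cytokine signals through STAT5, rose by 3.17 ± 0.19 and 2.67 ± 0.13, with Cish at 184, 109 and 128 CPM in HPV-positive libraries, against 15.3, 16 and 15.3 CPM in HPV-negative libraries. Socs3, the corresponding brake on STAT3, rose by 2.24 ± 0.28. Dusp7 and Spred1, other brakes on ERK, fell, at log2 changes of -1.27 ± 0.14 and -0.76 ± 0.10.

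For lists of protein handling, directions depended on the scaling. Cytosolic ribosomal proteins had 32.9% of 76 members called higher and 2.63% lower, a direction that flips with no scaling factor, where 17 members were called lower and fewer higher. Of 21 genes of the unfolded protein response 47.6% were called higher and 4.76% lower, but as many lower as higher with no scaling factor. Of 16 heat shock proteins 37.5% were called higher and 0 lower by edgeR, as by DESeq2, with 0 lower at an unadjusted p under 0.05, but as many lower as higher with no scaling factor. Hspa1b, an inducible member, had 304, 389.8 and 669 CPM in HPV-positive libraries, against 89.6, 172 and 66.5 CPM in HPV-negative libraries (log2 2.05 ± 0.42), and reads of Hspa1b and its near-identical copy Hspa1a are hard to tell apart. Hspa1a was called higher (log2 1.79 ± 0.49), but not without HPV-positive library 3 (1.41 ± 0.51, edgeR adjusted p = 0.0568). Lysosomal genes were even (11 of 39 higher and 8 lower), although Psap, the precursor of lysosomal activators, stood at 5663 ± 228 TPM in HPV-positive and 3765 ± 452 TPM in HPV-negative macrophages (log2 0.86 ± 0.11). Here too the TPM levels lack the TMM scaling of the log2 change and give a smaller rise. Sqstm1 and Gabarapl1 of autophagy rose by 1.03 ± 0.06 and 1.10 ± 0.07. Among genes of the cytoskeleton and nucleus, Lmna, the nuclear lamin A, had 165, 186 and 216 CPM in HPV-positive libraries, against 631, 677 and 880.3 CPM in HPV-negative libraries (log2 -1.95 ± 0.14), and Gsn, the actin-severing protein gelsolin, rose by 1.18 ± 0.06.

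**Figure D5:**
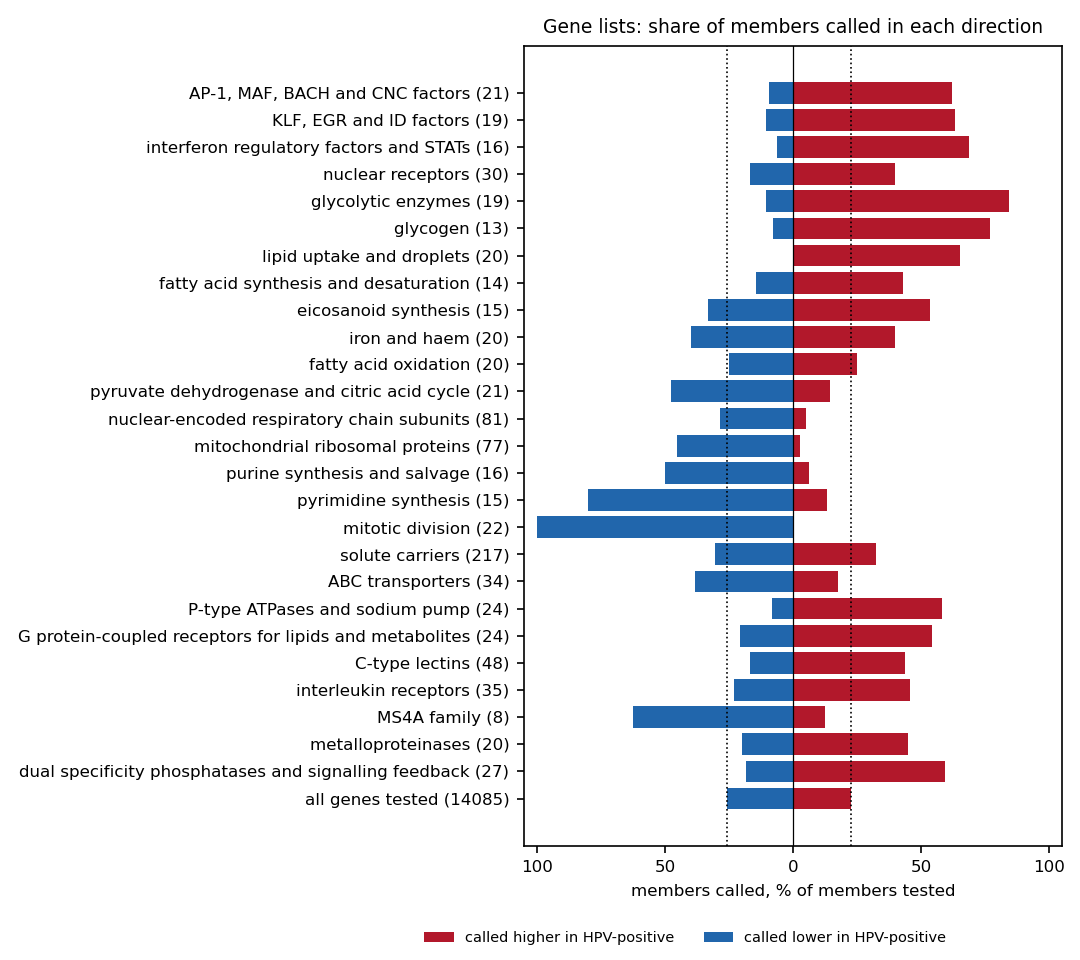
Share of tested members called higher (red, to the right) and lower (blue, to the left) in HPV-positive macrophages for 26 gene lists and for all genes, with the number tested in brackets. Dotted lines mark the shares over all genes, 22.8% higher and 25.9% lower; glycolytic enzymes reach 84.2% higher and mitotic genes 100% lower.

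Among the 15 largest rises of genes with at least 10 CPM in every HPV-positive library and no overlap between groups were Plet1, Car4 and Hic1. Plet1, a surface protein of epithelial progenitors and some dendritic cells and macrophages (chromosome 9, 50494525 to 50505482), had 547, 304 and 415 CPM in HPV-positive libraries, against 1.27, 0.908 and 1.1 CPM in HPV-negative libraries (log2 8.59 ± 0.26). Car4, a membrane carbonic anhydrase (chromosome 11, 84957786 to 84966044), had 11.2, 18.2 and 17.8 CPM in HPV-positive libraries, against 0.0289, 0 and 0.0269 CPM in HPV-negative libraries. The HPV-negative libraries held 2 counts of Car4 in all, so the ratio of 859 has a 95% counting interval of 237 to 7104. Hic1, a transcriptional repressor, had 101, 100.1 and 115 CPM in HPV-positive libraries, against 2.43, 2.64 and 0.78 CPM in HPV-negative libraries (log2 5.76 ± 0.30).

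Among the 15 largest falls by the same rule, with at least 10 CPM in every HPV-negative library, were Ctsk, Cspg4 and Folr2, beside Slc9b2 above. Ctsk, the collagen-degrading cathepsin K, had 1.29, 4.43 and 3.26 CPM in HPV-positive libraries, against 226, 309.9 and 424 CPM in HPV-negative libraries (log2 -6.73 ± 0.40). Cspg4, the proteoglycan NG2, had 0.209, 0.395 and 0.78 CPM in HPV-positive libraries, against 78.7, 65 and 150.2 CPM in HPV-negative libraries (log2 -7.67 ± 0.46, or -8.31 ± 0.58 without HPV-positive library 3), and its levels in the lines were low, at 1.13 CPM in the HPV-positive line and 0.324 CPM in the HPV-negative line. Folr2, a folate receptor of resident macrophages, had 5.47, 21.6 and 9.18 CPM in HPV-positive libraries, against 129, 207 and 111 CPM in HPV-negative libraries (log2 -3.62 ± 0.43, or -4.33 ± 0.34 without HPV-positive library 2). Cbr2, a carbonyl reductase found in such cells, fell, at a log2 change of -3.81 ± 0.39, and HPV-positive library 2 was the highest of its group for Ctsk, Folr2, Cbr2 and Cd163. Cyp2s1, a cytochrome P450, fell, at a log2 change of -3.79 ± 0.29. Gja1, the gap junction protein connexin 43, and Pmp22, a myelin protein, fell, at log2 changes of -3.74 ± 0.28 and -3.64 ± 0.30, and both are also expressed by the lines, Gja1 at 73.9 CPM in the HPV-positive line and 109 CPM in the HPV-negative line. SCCVII macrophages held Cspg4 at 371 to 446 CPM and Ctsk at 28.5 to 42.5 CPM over their 3 libraries.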

How the data were processed

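Macrophages were sorted from subcutaneous tumours and their RNA was made into libraries with a stranded mRNA kit, per the labels' protocols. The values are expected counts and TPM per gene, which the authors deposited with the column headers of RSEM. The submitters' processing notes name STAR 2.5.3a and RSEM 1.3.0 and the build GRCm38; no strand setting or annotation release is given there. RSEM divides reads among similar transcripts, so near-identical genes are uncertain, and so are overlapping and antisense genes.

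GENCODE M21 gave symbols for 95.8% of 36793 identifiers. Expected counts were rounded (12.8% of the macrophage values were not whole). The 9 macrophage libraries, with SCCVII, shared a fit in edgeR 4.0.16 (R 4.3.3): TMM, filterByExpr with a minimum count of 10 and a minimum total of 15, the quasi-likelihood test, a prior count of 0.125, and p-values adjusted by Benjamini-Hochberg over all genes with a threshold of 0.05. The SE is the log2 change divided by the root of F. Levels are CPM, and cell line levels are CPM without scaling. DESeq2 1.42.0 and the other alternatives are in the closing section. The biological coefficient of variation was 16%. No 2 libraries of a group were as alike as sampling noise alone would make them. In the mean chi-square per gene, which grows with that difference, pairs with HPV-negative library 4 gave 74.4 and 91.2. HPV-negative libraries 1 and 2 gave 17.9, and pairs of HPV-positive libraries gave 11.95 to 29.4. HPV-negative library 4 thus lay furthest from the others of its group.

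Genes were named by rule: the 15 largest rises and falls among genes that were called, had no overlap between groups and reached 10 CPM in each library of the higher group, predicted genes left out; for each list up to 4 called rises and falls and the 2 most abundant members; gate genes and cell type markers; and members of counts of 5 or fewer. The text leaves some out for length, and some results are not reported here. The members and lists were chosen with earlier results of these data known. On simulated counts from these libraries, the fit on 14085 genes called 31 of 50 genes with a 1.5-fold change, 40 of 50 at 2-fold and 50 of 50 at 4-fold and at 8-fold, with 5 false calls. Only these few genes were changed, on a profile that all groups shared. The simulation therefore cannot show errors of scaling where many genes change, as in these data. The changed genes were drawn from those with more counts, so recovery of weakly expressed genes was not covered. Promoter sequences are from RefSeq on GRCm38.p6.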

Additional observations from a re-analysis of the deposited data

How the results depend on the processing

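Under RLE size factors, DESeq2, no filter on low counts, a fit of the 6 libraries alone and each library left out, all 6 counts of called genes stayed within 1.5 times their value. With library totals only and no scaling factor they moved to 1866 higher and 6595 lower, with 1584 at least 2-fold lower; lists with more members higher than lower went to 23 in place of 42, and lists with more lower to 36 in place of 16. Of 229 called genes that the texts name, 225 kept direction and call under every alternative, and 4 kept direction but lost the call without single libraries named above (Per3, Dbp, Hspa1a and Trf), Per3 and Dbp also with the replicate block and Trf in the 6 libraries alone and unscaled. Fos, Spi1, Csf1r and Krt8 did not pass the test with all libraries under TMM and changed sign: Fos to -0.0629 with the replicate block, -0.0389 without HPV-negative library 4 and -0.0321 unscaled; Spi1 to -0.0600, -0.0485 and -0.193 in the same order, the last with an edgeR adjusted p of 0.0457; Csf1r to 0.0703 without HPV-negative library 2; Krt8 to 0.611 with the block and 0.583 without HPV-negative library 4, both called higher. Among macrophage libraries, number 4 occurs only in HPV-negative library 4, so the replicate block gives that library a term of its own. The block and the fit without that library are therefore not independent checks. Over single libraries left out, Fos ranged from -0.0389 to 0.361, Spi1 from -0.0485 to 0.131, Csf1r from -0.175 to 0.0703 and Krt8 from -0.652 to 0.583. Leaving out a library gave 5774 to 7397 called genes, the fewest without HPV-positive library 3 and the most without HPV-negative library 4.

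The groups share numbers 1 and 2 only, and libraries with the same number deviated together with correlations of 0.11 and 0.09, so the numbers were not taken to pair samples. With the replicate block, 3427 genes were higher and 3506 lower. Depth limits genes near the floor of 3 counts, which is 0.0843 to 0.112 CPM, and such floors cover counting error only.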

Other observations

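Smaller receptor and adhesion families, not described above, are shown by genes that rose and genes that fell. The naming rule takes rises and falls from each list, so opposite pairs follow from it and are not a trait of these families. Ramp3, a partner protein that turns a calcitonin-type receptor towards adrenomedullin, had 58.1, 21.3 and 38.6 CPM in HPV-positive libraries, against 3.18, 1.71 and 2.42 CPM in HPV-negative libraries (log2 4.01 ± 0.37), while Calcrl, which encodes that receptor, had 2.84, 4.82 and 3.54 CPM in HPV-positive libraries, against 17.2, 15.4 and 17.8 CPM in HPV-negative libraries (log2 -2.17 ± 0.16). The library order differs between both genes, with HPV-positive library 2 the lowest of its group for Ramp3 and the highest for Calcrl. Plxnc1 and Plxnb2, which encode semaphorin receptors, changed by 1.29 ± 0.08 and -1.09 ± 0.07, with Plxnc1 higher and Plxnb2 lower in every HPV-positive library. Among integrins, Itgal, a chain of LFA-1, had 555, 605 and 571 CPM in HPV-positive libraries, against 216, 221 and 122 CPM in HPV-negative libraries (log2 1.63 ± 0.20), and Itgav, a chain of vitronectin receptors, had 88.3, 112 and 103 CPM in HPV-positive libraries, against 159.9, 171 and 221 CPM in HPV-negative libraries (log2 -0.86 ± 0.13). Integrins as a family were balanced, with 7 of 24 called higher and 7 lower by edgeR.

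Tnfrsf9, which encodes 4-1BB, rose by 1.98 ± 0.16, and Tnfrsf11a, which encodes RANK, the receptor that drives osteoclast formation, fell, at a log2 change of -0.86 ± 0.08. Tspan13 and Cd37, both tetraspanins, changed by 2.96 ± 0.30 and -2.06 ± 0.14, with Cd37 at 19.2, 24.5 and 23.1 CPM in HPV-positive libraries, against 81.9, 82.8 and 113 CPM in HPV-negative libraries. Htr7, a serotonin receptor, had 111, 87.3 and 109 CPM in HPV-positive libraries, against 28.3, 30.8 and 10.2 CPM in HPV-negative libraries (log2 2.15 ± 0.34), and Ccr2, the chemokine receptor by which monocytes enter tissue, had 281, 239 and 268 CPM in HPV-positive libraries, against 509, 463 and 539 CPM in HPV-negative libraries (log2 -0.94 ± 0.08). Zfp36, which encodes the mRNA-destabilising protein tristetraprolin, had 4112, 3259 and 3523 CPM in HPV-positive libraries, against 1364, 1298 and 663 CPM in HPV-negative libraries (log2 1.71 ± 0.24). HPV-negative library 4 was the lowest of its group for Htr7, Zfp36, Itgal and Tspan13. For all of these genes the groups were apart.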
